A study of Mus musculus with 8 samples.

Results

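Cd163 and 9 other receptor and marker genes of macrophages were followed in dorsal skin of mouse embryos that lacked the glucocorticoid receptor (GR), a nuclear receptor that regulates transcription when it binds glucocorticoids. The 10 genes (Cd163, Mrc1, Msr1, Csf1r, Cd68, Folr2, Timd4, Mertk, Stab1 and Cx3cr1) were a fixed list. Every probe set annotated to 1 of them alone was taken, which gave 16 of the 45037 probe sets tested and 10 of 18194 genes. A probe set is a group of short oligonucleotides on the array that together read 1 transcript. Each gene was read at its brightest probe set over all arrays, and the other probe sets are given beside it. The wild-type group (GR+/+) held 4 arrays, numbered 4, 6, 28 and 29 in the labels, and the GR-null group (GR-/-) held 4, numbered 5, 17, 25 and 26. Both groups were B6D2/F1 embryos, with no treatment named, taken by caesarean section at embryonic day 18.5, described as littermates, and the numbers do not pair them. The sources used here give neither the way the receptor gene was disrupted nor whether each array came from its own embryo, so the p-values measure the spread between these samples. All values are log2 expression on the scale of RMA (robust multi-array average), and genotype differences are read between arrays. Between genes or probe sets, levels serve only to call them bright or dim or to choose among them.

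Macrophages settle in the skin before birth, from yolk sac and fetal liver precursors, and live in the dermis, along vessels and between muscle fibres. CD163 is a scavenger receptor of the cysteine-rich family that takes up complexes of haptoglobin and haemoglobin, so that haem can be broken down inside the cell. In macrophages and monocytes it is a known target of glucocorticoids. CSF1R, the receptor for the growth factors CSF1 and IL-34, and CD68, a glycoprotein of lysosomes, mark macrophages in general, and the other members bind sugars, lipoproteins, folate, dying cells or a chemokine.

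Nr3c1, which encodes GR, was lower in every GR-null array at its brightest probe set, with values of 10.24, 10.32, 10.24 and 10.24 in wild-type 4, 6, 28 and 29, against 9.21, 9.24, 9.62 and 9.61 in GR-null 5, 17, 25 and 26, a log2 fold change of -0.84. Its next 2 probe sets in brightness fell by 1.86 and 2.70, and the 3 dimmest, at 0.27, 0.04 and 0.35, were not past the threshold. The position of the probe sets relative to the disruption is unknown here. Defining genes of skin were bright in both groups. Across the arrays the mean of 11 keratinocyte genes lay between 12.32 and 12.98 and that of 8 dermal fibroblast genes between 13.05 and 13.24. Skeletal muscle genes were bright as well, and their mean differed between arrays, as given beside Cd163.

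The sequence around the start of Cd163 is shown because Cd163 was the member that changed and GR binds DNA at known motifs. The window runs from 250 bases before to 50 after the RefSeq transcription start on the plus strand of GRCm38.p6, chr6:124304401-124304700. Capitals mark matches to AGAACA, 1 arm of the GR motif, or its reverse complement TGTTCT.
Cd163: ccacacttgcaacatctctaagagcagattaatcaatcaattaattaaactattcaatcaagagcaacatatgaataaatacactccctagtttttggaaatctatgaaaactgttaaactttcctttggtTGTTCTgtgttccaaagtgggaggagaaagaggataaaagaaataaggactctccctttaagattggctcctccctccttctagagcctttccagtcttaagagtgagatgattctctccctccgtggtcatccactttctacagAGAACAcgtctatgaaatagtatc
It held 2 arms, at -119 to -114 on the minus strand and at 27 to 32 on the plus strand, counted from the start site with no base 0. An arm was present in 19.0% of the 32851 RefSeq promoter windows of this length, and 2 or more in 2.54%. The full GR palindrome, in which AGAACA and TGTTCT stand 3 bases apart, so that each match also counts as arms, was searched on both strands. It was not found in this window and occurred in 0.00913% of windows. The PU.1 core GAGGAA, read by the lineage factor of myeloid cells, was not found in it and occurred in 28.3% of windows. RefSeq windows were read for 8 of the 10 members. Among the other 7, Folr2 held 1 arm, in 1 of its 2 windows, and the windows of Mrc1, Cd68 and Stab1 held 3, 2 and 1 PU.1 cores, while those of Timd4, Mertk and Cx3cr1 held neither motif. No window was read for Msr1 and Csf1r. The search of the members left out the windows of 1 chromosome, so a missing window does not show that RefSeq holds none. These matches describe letters and were not set against binding.

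Cd163 fell 4.39-fold in GR-null skin. It read 7.94, 7.91, 8.28 and 8.22 in wild-type 4, 6, 28 and 29, against 5.89, 6.91, 5.57 and 5.44 in GR-null 5, 17, 25 and 26. All 4 GR-null values lay below all wild-type values, and GR-null 17 lay between the other 3 and the wild-type group, at about equal distances. Wild-type skin had a mean of 8.09 ± 0.19 and GR-null skin one of 5.95 ± 0.66 (SD, n = 4 each). Cd163 fell by 2.13 ± 0.29 log2 (SE, 95% interval -2.78 to -1.49, limma adjusted p = 0.0112 over all genes), at its single probe set. In GR-null 5, 25 and 26 it lay below the median of 6.5 over all probe sets, where RMA compresses differences. A fall of this size or larger was seen in 16 genes, Cd163 included, which is 0.0879% of those tested. Leaving out each array in turn gave log2 fold changes from -2.45 to -1.96, all past the threshold of 0.05, with adjusted p from 0.000232 to 0.0444. With the mean of 30 skeletal muscle genes as a covariate the log2 fold change was -1.28 ± 0.27 (SE) and no longer past the threshold (adjusted p = 0.113). That mean was lower in GR-null 5, 25 and 26 than in every wild-type array. In this fit mainly GR-null 17 therefore separates it from genotype. In whole skin, fewer cells of a type and less RNA per cell cannot be told apart.

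**Figure D1:**
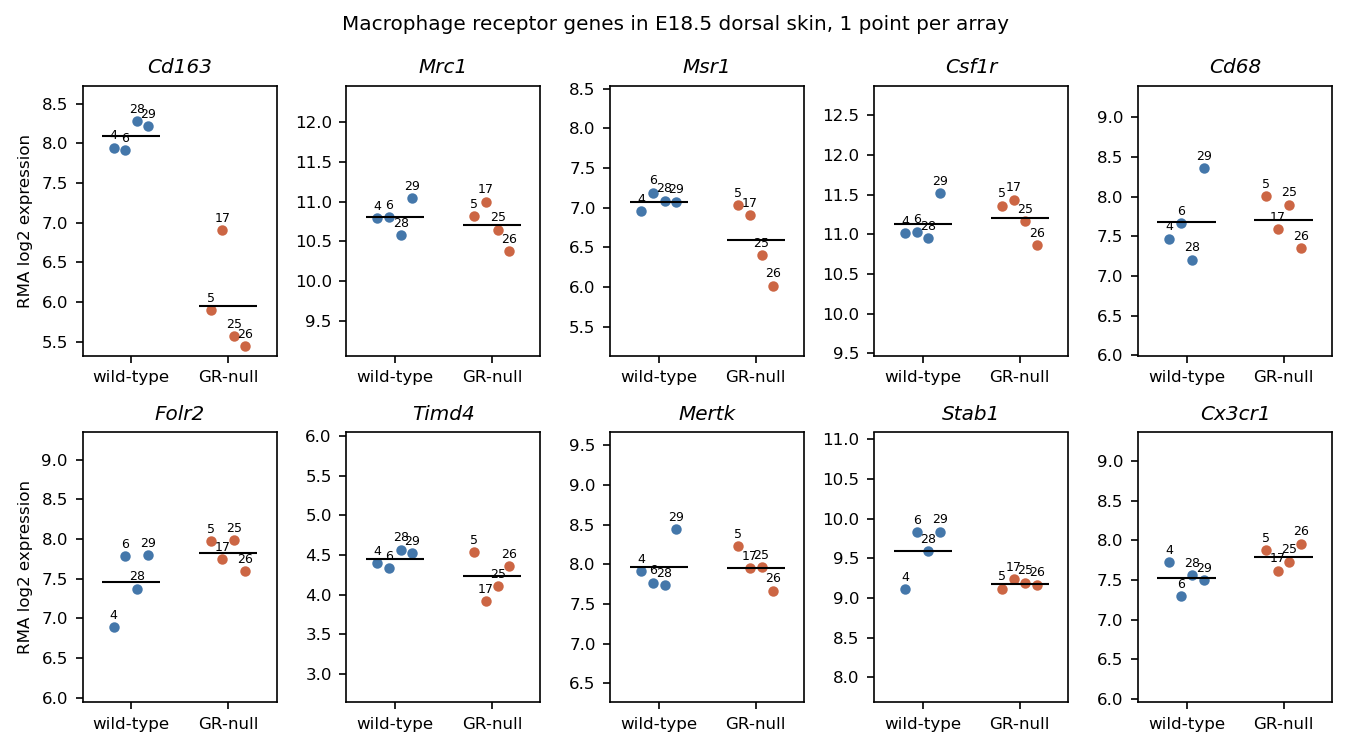
RMA log2 expression of the 10 genes at their brightest probe sets, 1 point per array with its label number, blue for wild-type and orange for GR-null, with a line at each group mean and the same axis length in every panel. Cd163 is the gene whose groups lie apart, at 7.91 to 8.28 against 5.44 to 6.91, while the groups of the other 9 overlap.

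Of the 10 members, 1 was past the threshold, Cd163, against 2.96% of all genes in either direction and 1.56% downward. The other 9 had log2 fold changes from -0.49 to 0.36 with a median of -0.01, beside a median of -0.0045 over all genes. The groups did not overlap for 1 of the 10, against 13% of all genes. At an unadjusted p below 0.05 there were 4 members, with Cd163, Msr1 and Stab1 lower and Cx3cr1 higher, against 21.6% of all genes.

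The fall of Cd163 was set against each general marker by taking, within every array, the log2 value of Cd163 minus that of the other gene. This cancels what both genes share on an array, and only its change between genotypes can be read. Against Csf1r the difference was -3.07, -3.12, -2.67 and -3.30 in wild-type 4, 6, 28 and 29, against -5.47, -4.53, -5.60 and -5.42 in GR-null 5, 17, 25 and 26. The groups did not overlap, and Cd163 fell by 2.21 relative to Csf1r. Relative to Cd68 it fell by 2.17, to Mrc1 by 2.04 and to Mertk by 2.12. Relative to Folr2 it fell by 2.50, to Cx3cr1 by 2.41, to Stab1 by 1.72 and to Msr1 by 1.65, and when each gene's probe sets were averaged the values for Cx3cr1 and Msr1 were -2.60 and -2.04. The order of the markers therefore depends on the probe sets. Relative to Timd4 it fell by 1.91, but Timd4 was dim on all arrays, so that pair adds little to the fall of Cd163 itself. In each of the 9 pairs the groups did not overlap and the two-sided exact permutation test over arrays gave p = 0.0286, the smallest that 4 against 4 allows (adjusted over the 9 pairs, 0.0286). The 9 tests share the values of Cd163, whose fall was known when the genes were chosen.

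Csf1r, through which the growth factors CSF1 and IL-34 keep macrophages alive, read 11.02, 11.04, 10.95 and 11.52 in wild-type 4, 6, 28 and 29, against 11.36, 11.44, 11.17 and 10.87 in GR-null 5, 17, 25 and 26. The groups overlapped, with GR-null 26 lowest and wild-type 29 highest, and the log2 fold change was 0.08 (95% interval -0.28 to 0.44, adjusted p = 0.837). Its 2 other probe sets gave -0.07 and 0.15. Cd68 read 7.47, 7.67, 7.21 and 8.36 in the wild-type arrays and 8.005, 7.59, 7.90 and 7.35 in the GR-null arrays, taken in that order. Its groups overlapped fully, with a log2 fold change of 0.03 (-0.51 to 0.58, adjusted p = 0.961). For both genes wild-type 29 held the highest value of all 8 arrays.

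Mrc1 encodes the mannose receptor CD206, a lectin that clears glycoproteins, and Folr2 a folate receptor found on tissue-resident macrophages. Mrc1 read 10.79, 10.80, 10.58 and 11.04 in wild-type 4, 6, 28 and 29, against 10.81, 11.00, 10.65 and 10.38 in GR-null 5, 17, 25 and 26. GR-null 26 was its lowest array and the other 3 GR-null arrays lay within the wild-type range. The log2 fold change of Mrc1 was -0.09 (95% interval -0.42 to 0.23, adjusted p = 0.778). Folr2 read 6.89, 7.78, 7.38 and 7.79 in the wild-type arrays and 7.97, 7.75, 7.98 and 7.59 in the GR-null arrays. Wild-type 4 was its lowest array and GR-null 5 and 25 lay above all wild-type arrays. The log2 fold change of Folr2 was 0.36 (-0.09 to 0.82, adjusted p = 0.336), and its interval excludes a fall of the size of Cd163, as do those of Mrc1, Msr1, Csf1r, Cd68, Mertk, Stab1 and Cx3cr1 at their brightest probe sets.

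Mertk, Timd4 and Stab1 bind dying cells. MERTK is a receptor tyrosine kinase that sees phosphatidylserine through the bridging proteins Gas6 and protein S, TIM-4 binds phosphatidylserine directly, and stabilin-1 is a scavenger receptor shared with sinusoidal and lymphatic endothelium. Mertk read 7.91, 7.77, 7.74 and 8.45 in wild-type 4, 6, 28 and 29, against 8.23, 7.95, 7.97 and 7.67 in GR-null 5, 17, 25 and 26. The groups overlapped, with a log2 fold change of -0.01 (95% interval -0.41 to 0.38, adjusted p = 0.982). Stab1 read 9.11, 9.82, 9.59 and 9.83 in the wild-type arrays and 9.11, 9.23, 9.19 and 9.17 in the GR-null arrays. The GR-null values had an SD of 0.05 and stood at the level of wild-type 4 and below the other 3 wild-type arrays. The log2 fold change of Stab1 was -0.41 (-0.76 to -0.07, adjusted p = 0.16), and without wild-type 4 it was -0.57 with adjusted p = 0.0298. Timd4 read between 4.33 and 4.57 in wild-type arrays and between 3.92 and 4.54 in GR-null arrays, with a log2 fold change of -0.22 (adjusted p = 0.379). Its mean of 4.34 lies far below the median of 6.5 over all probe sets, where RMA compresses differences and a fall may not be seen.

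Msr1 encodes the class A scavenger receptor for modified lipoproteins, and Cx3cr1 the receptor for the chemokine fractalkine. Their probe sets did not give 1 answer. At the brightest of 4, Msr1 read 6.96, 7.19, 7.09 and 7.08 in wild-type 4, 6, 28 and 29, against 7.03, 6.90, 6.41 and 6.02 in GR-null 5, 17, 25 and 26, where GR-null 25 and 26 stood lowest. The log2 fold change there was -0.49 (95% interval -0.95 to -0.03, adjusted p = 0.207). At the third brightest, Msr1 read 6.46, 6.45, 6.38 and 6.27 in the wild-type arrays and 6.88, 6.76, 6.94 and 6.68 in the GR-null arrays, with no overlap, and rose by 0.43 ± 0.08 (SE, adjusted p = 0.0337 over all probe sets). The other 2 gave -0.10 and -0.22. No direction is therefore given for Msr1.

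At its brighter probe set Cx3cr1 read 7.73, 7.30, 7.56 and 7.50 in wild-type 4, 6, 28 and 29, against 7.88, 7.62, 7.73 and 7.96 in GR-null 5, 17, 25 and 26. GR-null 17 lay within the wild-type range and the other 3 GR-null arrays above it, and the log2 fold change was 0.28 (95% interval 0.02 to 0.53, adjusted p = 0.196). At its dimmer probe set it read 4.83, 4.86, 4.83 and 4.97 in the wild-type arrays and 5.51, 5.06, 5.68 and 5.83 in the GR-null arrays. There the groups did not overlap and Cx3cr1 rose by 0.65 ± 0.15 (SE, adjusted p = 0.0493 over all probe sets). The mean of both probe sets gave 0.46 with adjusted p = 0.0496. Of the 16 member probe sets 3 were past the threshold, 1 lower and 2 higher, against 3.85% of all probe sets, and for the same 3 the groups did not overlap, against 12.6%.

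**Figure D2:**
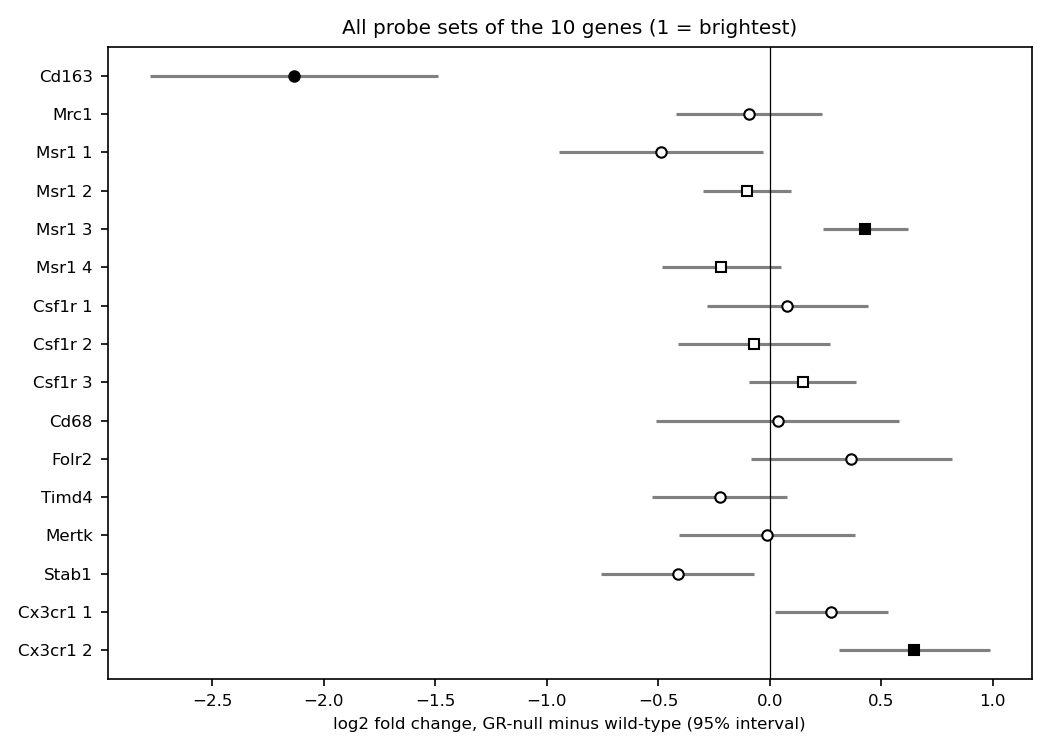
Log2 fold changes, GR-null minus wild-type, with 95% intervals at all 16 probe sets of the 10 genes, circles for the brightest of a gene, squares for the others and filled symbols for adjusted p below 0.05 over all probe sets. Cd163 lies at -2.13, the third probe set of Msr1 at 0.43 and the second of Cx3cr1 at 0.65, and the other 13 are open.

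The mean of 30 skeletal muscle genes moved with genotype. It lay between 11.07 and 11.18 in wild-type arrays and was 10.16, 10.43 and 10.33 in GR-null 5, 25 and 26, but 11.09 in GR-null 17. GR-null 17 was also the GR-null array with the most Cd163, at 6.91, still below every wild-type array. It and wild-type 6 were the 2 arrays with high Xist, the RNA of the inactive X, and with the level of a Y-linked gene as a covariate Cd163 fell by 2.17 (adjusted p = 0.0134). In the fit with the muscle mean as a covariate, which ended the call of Cd163, 107 of all genes were past the threshold in place of 539. Since mainly GR-null 17 separates the muscle mean from genotype, this fit cannot tell their parts apart. The part of the muscle level in the fall of Cd163 was not tested beyond these values. The mean of 23 general macrophage and myeloid genes lay between 7.95 and 8.48 in wild-type and between 8.05 and 8.44 in GR-null arrays. With it as a covariate Cd163 fell by 2.24 ± 0.27 (adjusted p = 0.0129).

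**Figure D3:**
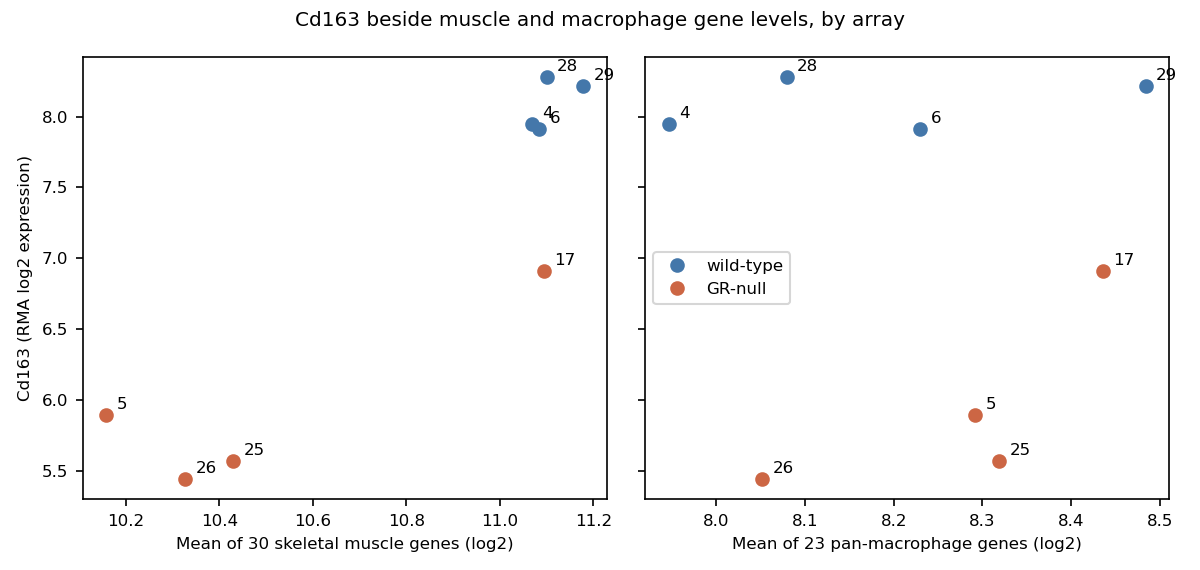
Cd163 (RMA log2 expression) against the mean of 30 skeletal muscle genes (left) and of 23 general macrophage genes (right), 1 point per array with its label number, blue for wild-type and orange for GR-null. GR-null 17 lies at the wild-type muscle level of 11.09 with Cd163 at 6.91, and the macrophage means of the groups overlap.

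Other macrophage genes were read in the same way. Of 23 measured general macrophage and myeloid genes 1 rose and 0 fell at their brightest probe sets, against 1.40% and 1.56% of all genes. Their median log2 fold change was 0.21. The riser was Cd53, a tetraspanin of leukocytes. It read 8.81, 9.04, 8.90 and 9.09 in wild-type 4, 6, 28 and 29, against 9.44, 9.40, 9.55 and 9.36 in GR-null 5, 17, 25 and 26, with no overlap, and rose by 0.47 ± 0.09 (SE, adjusted p = 0.0303). Without 1 array it stayed past the threshold in 2 of 8 fits, those without wild-type 6 or GR-null 17. At an unadjusted p below 0.05 there were 8 higher genes and 1 lower, against 10.5% and 11.1% of all genes. The higher ones beside Cd53 were Apoe, Lyz2, Itgam, Lgmn, Adgre1, Fcgr2b and Trem2, with log2 fold changes of 0.71, 0.51, 0.38, 0.34, 0.30, 0.23 and 0.21 and adjusted p from 0.0768 to 0.207. Adgre1 encodes a surface antigen widely used to mark mouse macrophages, Lyz2 lysozyme and Apoe a lipid carrier made by macrophages and other cells. The lower one was Laptm5, a lysosomal protein of blood cells, at -0.94 (adjusted p = 0.0655), and its 4 other probe sets ranged from -0.53 to 0.31. A dimmer probe set of Cybb was higher and past the threshold over all probe sets.

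Of 27 measured genes of resident and perivascular macrophages 1 rose and 1 fell, against 1.40% and 1.56% of all genes, with a median log2 fold change of 0.02. Lyve1, a hyaluronan receptor of perivascular macrophages and of lymphatic endothelium, read 9.55, 9.82, 9.69 and 9.83 in wild-type 4, 6, 28 and 29, against 9.07, 9.24, 8.87 and 8.81 in GR-null 5, 17, 25 and 26. All GR-null arrays lay below all wild-type arrays, and Lyve1 fell by 0.73 ± 0.11 (SE, adjusted p = 0.0176). Its other probe set fell by 0.83 (adjusted p = 0.0362 over all probe sets). The adjusted p of Lyve1 was 0.0516, 0.0605 and 0.071 without wild-type 28, wild-type 29 and GR-null 25, and 0.273 with the muscle covariate (-0.53). Of 12 endothelial genes limma called 0 at their brightest probe sets, against 2.96% of all genes. Among them 4 were lower and 1 higher at an unadjusted p below 0.05, against 11.1% and 10.5% of all genes. The part of these 12 genes in the fall of Lyve1 was not tested.

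Selenop, the plasma selenium carrier, rose by 0.49 ± 0.11 (SE, adjusted p = 0.047), from 12.63, 12.45, 12.34 and 12.82 in wild-type 4, 6, 28 and 29 to 13.03, 13.06, 13.12 and 12.999 in GR-null 5, 17, 25 and 26, and it stayed past the threshold in 2 of 8 fits, those without wild-type 29 or GR-null 17. With the macrophage or Y-linked covariate its adjusted p was 0.0578 or 0.0551. At an unadjusted p below 0.05 there were 4 higher and 5 lower genes of this list, against 10.5% and 11.1% of all genes. The lower ones beside Lyve1 were Fcna, a ficolin, at -0.95 (adjusted p = 0.0524), F13a1, a clotting transglutaminase subunit, at -0.50 (0.136), Pf4, a chemokine also held in platelets, at -0.43 (0.0537), and Cd5l, a secreted scavenger protein, at -0.28 (0.207). For Fcna and Pf4 no GR-null array reached the lowest wild-type array, and in 7 and 6 of 18 other settings they passed the threshold, with adjusted p down to 0.0141 and 0.0193. The higher ones beside Selenop were Ccl6, Dab2 and Ccl24, at 0.86, 0.28 and 0.26 with adjusted p from 0.132 to 0.206. The 3 other probe sets of Dab2, an endocytic adaptor, gave -0.17, 0.17 and 1.07, the last past the threshold (adjusted p = 0.0316 over all probe sets).

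**Figure D4:**
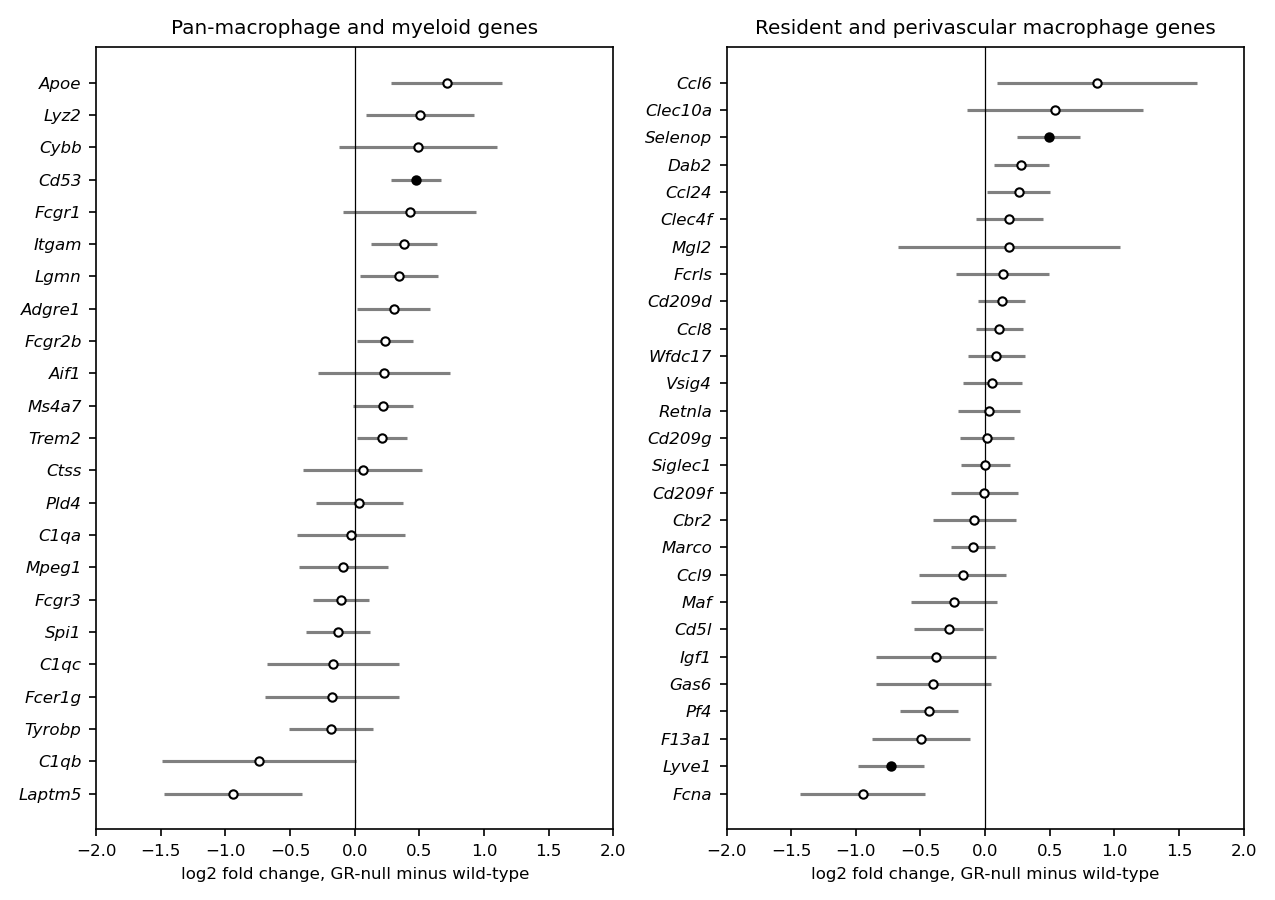
Log2 fold changes, GR-null minus wild-type, with 95% intervals for 23 general macrophage and myeloid genes (left) and 27 genes of resident and perivascular macrophages (right), each at its brightest probe set, filled where adjusted p was below 0.05 over all genes. Cd53 at 0.47, Lyve1 at -0.73 and Selenop at 0.49 are filled.

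The 17 genes of haemoglobin and haem handling act before or after CD163. Of these 0 were past the threshold at their brightest probe sets, against 2.96% of all genes, with a median of 0.12. By limma 2 were higher and 0 lower at an unadjusted p below 0.05, against 10.5% and 11.1% of all genes. Hp, the haptoglobin that CD163 binds in complex with haemoglobin, had a log2 fold change of 0.29 (95% interval -0.74 to 1.31) and its highest value was 7.84, in GR-null 17, while all other arrays read 5.57 to 5.98. Hmox1, the inducible enzyme that breaks down haem, had -0.18 (-0.90 to 0.55), and Slc40a1, the iron exporter ferroportin, 0.27 (-0.01 to 0.55). At its dimmer probe set Slc40a1 read 8.32, 8.20, 8.14 and 8.19 in wild-type 4, 6, 28 and 29, against 9.13, 9.08, 9.39 and 9.22 in GR-null 5, 17, 25 and 26, with no overlap, and rose by 0.99 (adjusted p = 0.00279 over all probe sets). These 3 were chosen after their values were seen. Adam17, the protease that sheds CD163 from the cell surface, had no overlap between the groups, with GR-null higher and a log2 fold change of 0.25 (adjusted p = 0.107). Its dimmer probe sets gave 0.52 (adjusted p = 0.0316 over all probe sets) and 1.42 (0.0747). Nfe2l2, which encodes the stress factor NRF2, had 0.30 (adjusted p = 0.211).

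Of 7 ligands of the member receptors 0 were past the threshold by limma, against 2.96% of all genes. Among them 1 was higher and 1 lower at an unadjusted p below 0.05, against 10.5% and 11.1% of all genes. Il34, the keratinocyte ligand of CSF1R, read 5.99, 6.68, 6.63 and 6.22 in wild-type 4, 6, 28 and 29, against 7.04, 6.88, 7.20 and 7.41 in GR-null 5, 17, 25 and 26. The groups did not overlap, and the log2 fold change of 0.76 missed the threshold (adjusted p = 0.0547) and passed it without GR-null 17 (0.0286) and in 4 other settings (0.0183 to 0.0496). Mfge8, a bridge between dying cells and integrins, had -0.43 (adjusted p = 0.0712). Csf1, Gas6 and Pros1, chosen after their values were seen, had -0.02, -0.40 and -0.32.

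Among 22 other scavenger and lectin receptors 1 fell and 0 rose at their brightest probe sets, against 1.56% and 1.40% of all genes. The faller was Ager, the receptor for glycation end products, by 0.71 ± 0.13 (SE, adjusted p = 0.0262). Among 19 genes of apoptotic cell uptake 1 rose and 1 fell at their brightest probe sets, against 1.40% and 1.56% of all genes. The integrin subunit gene Itgb3, also abundant in platelets, fell by 1.22 ± 0.20 (adjusted p = 0.0203), with its dimmer probe set at -0.04, and Dock1, an activator of Rac, rose by 0.48 ± 0.09 (adjusted p = 0.0337). Of the 8 fits without 1 array, Ager missed the threshold in 5 (without wild-type 4 or 28 or GR-null 5, 25 or 26) and Dock1 in 6 (all but those without wild-type 4 or GR-null 17), with adjusted p up to 0.0969 and 0.114. Itgb3 missed it without GR-null 25 (0.0812) and GR-null 26 (0.0623). At its 1 probe set not named _s_at Ager had -0.07 (adjusted p = 0.757 over all probe sets). By limma both lists held 2 higher and 3 lower genes each at an unadjusted p below 0.05, against 10.5% and 11.1% of all genes. Dimmer probe sets past the threshold over all probe sets were 1 of Clec4n and 2 of Abca1, higher, and 1 of Lrp1, lower.

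Markers of other cells were read for the same arrays. Beside the counts that follow, 1.56% of all genes fell and 1.40% rose. Of 11 mast cell genes 3 fell and 0 rose. They were the receptor gene Mrgprb1, by 3.47 ± 0.18 (SE, adjusted p = 0.000189), Hdc, the histamine-forming enzyme, by 1.41 ± 0.22 (adjusted p = 0.0167) and the tryptase gene Tpsab1 by 0.82 ± 0.15 (adjusted p = 0.0308). Mrgprb1 kept the threshold in 8 of 8 fits without 1 array, Hdc missed it without wild-type 28 (0.0516) and wild-type 29 (0.0598), and Tpsab1 kept it in 2, those without GR-null 17 or 26. The mean of the mast cell list lay between 9.20 and 9.51 in wild-type and between 8.90 and 9.14 in GR-null arrays. The other 8 genes were not past the threshold, and the median log2 fold change of the list was -0.0018 (5 genes higher, 6 lower). Of 6 erythroid genes the embryonic globin gene Hbb-y fell by 1.86 ± 0.32 (adjusted p = 0.0241), and it missed the threshold without wild-type 4 or 28 or GR-null 5, 25 or 26, with adjusted p up to 0.0852. At its 1 probe set not named _x_at Hbb-y had -0.77, not past the threshold (adjusted p = 0.22 over all probe sets). Of the 30 muscle genes 6 fell and 0 rose, among them Mybpc1, Casq2, Actn2 and Tnnt2 at -0.92, -0.90, -0.75 and -0.68. Of the 11 keratinocyte genes Trp63 rose by 0.60, and Flg and Lor fell by 2.35 and 0.48. Without 1 array each of these 7 muscle and keratinocyte genes missed the threshold in 3 to 7 of 8 fits, with adjusted p up to 0.111, and all 7 kept it without GR-null 17. The part of these cells in the fall of Cd163 was not tested.

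In 7 further lists limma called 0 genes at their brightest probe sets, against 2.96% of all genes tested. These were 5 monocyte, 11 Langerhans and dendritic cell, 8 neutrophil, 8 lymphocyte, 12 endothelial, 8 fibroblast and 6 adipocyte genes. At an unadjusted p below 0.05 they held, in that order, 0, 4, 0, 1, 5, 3 and 0 genes, against 21.6% of all genes. The smallest p among the monocyte genes were those of Fn1 (-0.20) and Chil3 (-0.37), and among the antigen-presenting genes those of Cd74 (0.64) and H2-Eb1 (0.63). In the neutrophil list they were those of Camp (0.55) and Mpo (0.08), in the lymphocyte list Cd3e (-0.36) and Nkg7 (-0.27), and in the endothelial list Tek (-0.69) and Tie1 (-0.37). A dimmer probe set each of endothelial Prox1 and Flt4 was past the threshold over all probe sets, higher in GR-null. Fibroblast Col1a1 and Lum had -0.30 and 0.30, and adipocyte Pparg and Lpl 0.40 and 0.29.

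The 5 genes whose values ran most like those of Cd163 over the 8 arrays were ranked by Pearson r among 9097 genes brighter than the median gene. They were Efnb2 (r = 0.994), a ligand of Eph receptors on arterial endothelium, Ttc13 (0.988), Rwdd2b (0.987), Ergic1 (0.987), a protein of the route from the endoplasmic reticulum to the Golgi, and E2f7 (0.986), a repressor of the cell cycle. The genotype difference shared by these arrays enters such a ranking, and no p is given. In all 5, GR-null 17 was the GR-null array nearest to the wild-type group, as for Cd163. The choice by likeness over these same arrays favours this. Their log2 fold changes were -0.45, -0.73, -0.56, -0.67 and -0.26. Of the 4 past the threshold, Ergic1 kept it in 8 of 8 fits without 1 array, and Efnb2, Ttc13 and Rwdd2b in 1, 1 and 2. The other 3 probe sets of Efnb2 gave 0.24, 0.79 and 0.52, opposite in sign to its brightest. Those of Ergic1 gave -0.004, 0.05, -0.36 and -0.25, of which -0.36 was past the threshold (adjusted p = 0.0413 over all probe sets). Those of Ttc13 gave -0.28 and -0.13, not past it. None of the other 9 members was among the 5, but only 5 of 9097 genes were kept, so this sets no member apart.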

How the data were processed

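RNA of 8 dorsal skin samples was hybridised to single-colour Affymetrix mouse arrays. The deposited log2 values were made by the authors with RMA, per the submitters' processing notes, which subtracts background, equalises the arrays' distributions and summarises each probe set. The sources used here do not give its version. Array medians lay between 6.46 and 6.52. RMA compresses differences of dim transcripts and hides a shift of most genes, and the number of arrays limits the precision.

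Of 45101 probe sets 64 controls were left out. Of the rest 34945 carried 1 gene symbol, 932 several and 9160 none listed here. Identifiers of 18032 of 18194 genes were found in the RefSeq table of GRCm38.p6. limma 3.58.1 in R 4.3.3 fitted genotype to all 45037 probe sets (lmFit, eBayes, two-sided, Benjamini-Hochberg, threshold 0.05). Genes were read at their brightest probe set and adjusted over all genes, the other probe sets over all probe sets. These adjustments differ. The probe sets read for Il34, Fcna and Pf4 were past the threshold over all probe sets (0.0496, 0.0472 and 0.0483) but not over all genes. The fit was tested on simulated data, where it recovered 43.0%, 88.7% and 98.5% of genes shifted by 0.5, 1 and 2 log2 among 18194. The simulated noise was independent for each probe set and array. A level that many genes share on an array was not simulated, so these rates may not hold for the real arrays. Single values were compared by exact permutation over arrays with Python 3.11.15.

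The members and gene lists were chosen with earlier results of these data known. Named genes were all members and, in each other list, up to 4 genes past the threshold with the largest change, otherwise the 2 with the smallest p. In the lists of general macrophage, resident macrophage, haem handling and ligand genes, those with an unadjusted p below 0.05 were named too, and the 5 genes most like Cd163. Other settings tried were a repeated quantile normalization, probe sets above the median level, other variance priors, array weights, leaving out each array, covariates for the Y-linked level, muscle and macrophage genes, averaging a gene's probe sets, and leaving out probe sets ending in _x_at or _s_at.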

Additional observations from a re-analysis of the deposited data

Results flagged for a closer look

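In 8 of 144 groups of 4 arrays tested, 1 array stood apart from the other 3 by more than Dixon's 95% critical value of 0.829 for the share of the range taken by the gap; chance flags about 1 in 20 groups. Among the members this was Csf1r in wild-type 29, at 11.52 against 10.95 to 11.04 in the other wild-type arrays. Nr3c1 in wild-type 6 read 10.32 against 10.24 in each of the other 3. GR-null 17 stood apart for Ager, at 6.89 against 6.60 to 6.62, and for E2f7, at 8.84 against 8.62 to 8.64. GR-null 26 stood apart for Lyz2, at 9.08 against 9.57 to 9.67, and for Dab2, at 10.93 against 11.16 to 11.20. Ccl6 in wild-type 4 read 6.40 against 6.97 to 7.07, and Efnb2 in wild-type 6 read 11.23 against 11.29 to 11.30.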

How the results depend on the processing

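Cd163 kept its direction and its side of the threshold in 17 of 18 other settings, and with the muscle covariate it was -1.28 (adjusted p = 0.113). No paired analysis was possible because the groups share no label number. The count of genes was 1944 with array weights, 884 with the mean of all probe sets, 107 with the muscle covariate (46 of them among the 539) and 79 to 1640 without 1 array (leaving out wild-type 4, 6, 28 or 29 gave 295, 321, 142 or 104, and leaving out GR-null 5, 17, 25 or 26 gave 186, 1640, 79 or 154). The count of probe sets was 5831 with array weights, 113 with the muscle covariate and 125 to 4866 without 1 array. Members past the threshold numbered 0 with the muscle covariate, 2 with the mean of all probe sets (Cx3cr1 joined) and 1 to 2 without 1 array (Stab1 joined without wild-type 4). Relative to another member Cd163 fell in every fit without 1 array, where the exact p reached 0.0571 in some fits that left out a wild-type array: -2.53 to -1.95 for Cd68, -2.84 to -2.32 for Folr2, -2.33 to -1.70 for Timd4, -2.44 to -1.98 for Mertk, -2.02 to -1.55 for Stab1, -2.79 to -2.19 for Cx3cr1. Members near 0 changed sign. With the muscle covariate Mrc1 was 0.16 and Cd68 -0.042, with the macrophage covariate Csf1r was -0.023 and Cd68 -0.11, and without 1 array Mrc1 ranged from -0.19 to 0.016, Cd68 from -0.12 to 0.26 and Mertk from -0.10 to 0.15. Ccl6 was -0.033 and Mpo -0.014 with the muscle covariate, Efnb2 was 0.28 with the mean of its probe sets, and Camp ranged from -0.012 to 0.82 without 1 array. The cause was not tested. Dim transcripts such as Timd4 limit what could be seen.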
